A study of Mus musculus with 2 samples.

Results

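The genes described here are 10 genes of TGF-beta, myostatin and activin signalling, taken by symbol from the 32285 genes of the deposited matrices. They are the ligand genes Tgfb1, Tgfb2, Tgfb3, Mstn and Inhba, the latency gene Ltbp1, and the receptor genes Tgfbr1, Tgfbr2, Tgfbr3 and Acvr2b. All 10 were found once in each matrix. Their unique molecular identifiers (UMIs, 1 per captured RNA molecule) were summed per cell class and library in barcodes with at least 2000 UMIs, and are given as CPM, the gene's UMIs over all UMIs of that class, scaled to 1000000.

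The series holds 2 libraries of nuclei from the tibialis anterior, the shin muscle that lifts the foot, taken 5 days after surgical ligation of the femoral artery. Both came from male mice of 16 to 20 weeks with chronic kidney disease, so kidney disease and ischaemia are common to both and no untreated muscle was analysed here. One library is labelled AHRfl/fl and the other AHRmKO. For both, the strain label is a cross of 2 lines. AHRtm3.1Bra/J carries recombination sites in Ahr, the aryl hydrocarbon receptor gene, and the other line is Tg(ACTA1-cre/Esr1*)2Kesr/J. Its transgene places a Cre recombinase fused to a modified oestrogen receptor under a skeletal actin promoter, so its target is the muscle fibre. Whether the AHRfl/fl mice carried it, which agent induced it and how many animals stand behind a library is not stated in the labels. With 1 library per group no comparison between the libraries has a replicate check. Every interval below is a 95% interval for counting error only, exact Poisson for a level and exact binomial for a share or a ratio.

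TGF-beta is secreted bound to its propeptide and often to a latent TGF-beta binding protein, from which it must be released before it can signal. The freed dimer binds the type II receptor TGFBR2, which recruits and phosphorylates the type I receptor TGFBR1, and the co-receptor betaglycan (TGFBR3) presents ligand, TGF-beta 2 in particular. Myostatin, a muscle-derived brake on muscle mass, and activin A, a dimer of the chain encoded by Inhba, use activin type II receptors such as ACVR2B. In injured muscle these ligands are known for acting on fibroblasts, macrophages and muscle progenitors.

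Summed over all barcodes the libraries held 151788328 (AHRfl/fl) and 113737134 (AHRmKO) UMIs, and filtering left 15832 and 7522 nuclei with medians of 3672.5 and 3598 UMIs. The 2 libraries had 43 barcodes of at least 2000 UMIs in common. Of 22 clusters, 19 were named from marker genes and 7 classes held at least 50 nuclei in each library. The class names are rebuilt from markers, and a difference from the study's own names may come from that. The libraries stood apart: 15 of the 22 clusters drew at least 90% of their nuclei from 1 library, and together these clusters held 81.2% of all nuclei. The estimated share of free RNA in a nucleus was 35.6% and 17.4% with the RNA of barcodes of at most 100 UMIs as the profile, and 19.5% and 23.1% with that of barcodes of 200 to under 500 UMIs. Ahr itself stood at 4.78 (9 UMIs) and 4.94 (10 UMIs) CPM in myofibre-like nuclei of the libraries labelled AHRfl/fl and AHRmKO. These counts cover the whole gene, so they do not check the deletion.

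In each pair of values that follows, the library labelled AHRfl/fl comes first and the one labelled AHRmKO second. The classes are myofibre-like (385 and 581 nuclei), regenerating myonucleus-like (3732 and 1629), satellite or myoblast-like (2711 and 2001), macrophage or monocyte-like (6353 and 2400), fibroadipogenic or fibroblast-like (1404 and 613), endothelial-like (314 and 159) and adipocyte-like (115 and 82).

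Tgfb1 was highest in macrophage-like nuclei of both libraries, Tgfb2 in satellite-like nuclei of the library labelled AHRfl/fl, Tgfb3 in regenerating-like nuclei and Mstn in myofibre-like nuclei. In the library labelled AHRfl/fl these 4 ligand genes had 4 different leading classes. On the receptor side, Tgfbr1 was highest in macrophage-like and Tgfbr3 in adipocyte-like nuclei of both libraries. For 6 of the 10 genes (Tgfb1, Tgfb3, Mstn, Ltbp1, Tgfbr1 and Tgfbr3) the highest class was the same in both libraries.

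**Figure D1:**
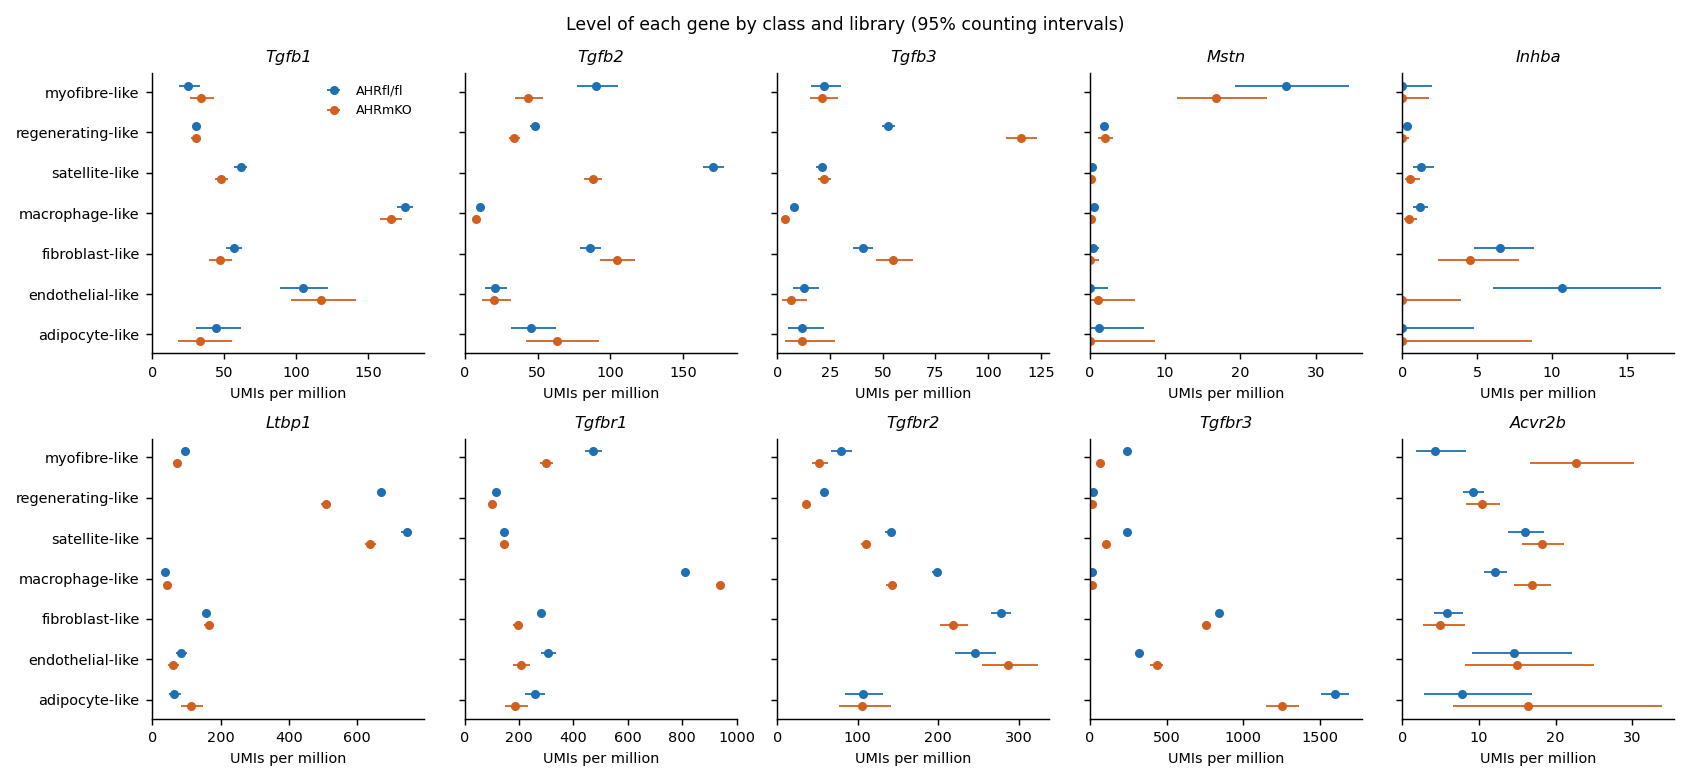
Level of each of the 10 genes (horizontal axis, CPM, its own linear scale in each panel) in the 7 classes (vertical axis), with 95% counting intervals; blue points are the library labelled AHRfl/fl and orange points the one labelled AHRmKO. Tgfb1 is highest in macrophage-like nuclei at 175 and 166, Mstn in myofibre-like nuclei at 26.0 and 16.8, and Tgfbr3 in adipocyte-like nuclei at 1596 and 1253.

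The ligand genes Mstn, led by myofibre-like nuclei, and Tgfb2, led by satellite-like nuclei in the library labelled AHRfl/fl, both lie on chromosome 1. Their upstream sequences are shown because, of the ligand genes with a matched promoter, these 2 have both a TATAAA match and a CANNTG match. CANNTG is the E-box core of many helix-loop-helix factors, those of myogenesis among them. The windows cover the 250 bases before the start site (RefSeq, GRCm38.p6). Capitals mark every CANNTG match, and the lines run 5′ to 3′ on the gene's strand.

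Mstn chr1:53061390-53061639, plus strand: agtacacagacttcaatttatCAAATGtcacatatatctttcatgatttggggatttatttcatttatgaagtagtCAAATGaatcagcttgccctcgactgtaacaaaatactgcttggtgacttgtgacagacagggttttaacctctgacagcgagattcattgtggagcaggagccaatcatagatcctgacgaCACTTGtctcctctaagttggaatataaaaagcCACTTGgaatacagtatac

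Tgfb2 chr1:186705990-186706239, minus strand: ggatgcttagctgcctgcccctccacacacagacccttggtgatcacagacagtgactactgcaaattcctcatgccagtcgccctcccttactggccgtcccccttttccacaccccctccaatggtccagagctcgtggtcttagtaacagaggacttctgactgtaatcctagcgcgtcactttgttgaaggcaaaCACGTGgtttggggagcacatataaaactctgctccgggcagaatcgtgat

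Upstream of Mstn, 4 CANNTG matches begin 229, 174, 52 and 19 bases before the start site, and a TATAAA match begins 29 bases before it. Upstream of Tgfb2, 1 CANNTG match begins 51 bases and 1 TATAAA match 31 bases before the start site. CANNTG, which reads the same on both strands, was present in 66.2% of 32851 RefSeq windows of 250 bases, and TATAAA, searched on both strands, in 12.4%. The windows of Tgfb1 and Inhba hold no CANNTG match, which says only that these letters are not in those windows. Promoter sequences were matched for 8 of the 10 genes, and those of Tgfb3 and Tgfbr3 were not used here.

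Tgfb1 (chr7:25687002-25705077, plus strand, GENCODE M21 on GRCm38, as for the genes below) encodes the ligand best known for driving fibrosis and restraining inflammation. It was counted at 175 (170 to 181) and 166 (158 to 173) CPM in macrophage-like nuclei. Endothelial-like nuclei followed at 104 and 117, then satellite-like nuclei at 61.4 and 47.8 and fibroblast-like nuclei at 56.7 and 46.9. The intervals of macrophage-like and endothelial-like nuclei did not overlap in either library, whereas those of satellite-like and fibroblast-like nuclei did. All 11 macrophage markers had UMIs in endothelial-like nuclei, summing to 4004 and 1183 CPM, against 9838 and 6995 in macrophage-like nuclei. In fibroblast-like nuclei they summed to 2284 and 460. The part of these markers in the Tgfb1 values was not tested. In myofibre-like nuclei Tgfb1 stood at 24.9 and 34.1, beside the 27.2 to 40.6 and 16.4 to 26.0 that free RNA alone would give in any class. Macrophage-like nuclei held 58.8% and 63.7% of all Tgfb1 UMIs in named and unnamed nuclei, beside 30.4% and 31.6% of the UMIs of all genes.

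Among macrophage-like clusters of the library labelled AHRfl/fl, Tgfb1 ran from 129 to 225 CPM. The highest level was in cluster 0, led by Fgr and Ptprc, and the lowest in cluster 3, led by F13a1, Mrc1 and Cd163, genes typical of resident-type macrophages. Cluster 14, which held most macrophage-like nuclei of the library labelled AHRmKO, stood at 180, within that range. In cycling macrophage-like nuclei, the 1 such cluster well filled by both libraries, Tgfb1 was at 153 and 123.

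Tgfb2 (chr1:186622792-186705989, minus strand) encodes a ligand that needs betaglycan for efficient receptor binding. It was at 171 (163 to 178) and 87.8 (82.0 to 93.9) CPM in satellite-like nuclei. Fibroblast-like nuclei were at 86.1 and 104 (92.8 to 117). In the library labelled AHRmKO the intervals of these 2 classes overlapped, and satellite-like nuclei were the higher ones once nuclei were thinned to 2000 UMIs (log2 ratio of fibroblast-like to satellite-like −0.13). Myofibre-like nuclei held 90.2 (77.2 to 105) and 43.4 (34.8 to 53.5), the library labelled AHRmKO being lower with no overlap of the intervals. Macrophage-like nuclei were lowest at 10.5 and 7.79, close to the estimated free RNA of 10.4 to 18.0 and 6.69 to 8.62. Satellite-like nuclei contributed 45.4% and 51.0% of the gene's UMIs from 16.8% and 26.8% of all UMIs.

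Tgfb3 (chr12:86056745-86079041, minus strand), a ligand gene also known from palate development, was at 52.6 (49.5 to 55.9) and 116 (108 to 123) CPM in regenerating-like nuclei, the class defined by embryonic myosin and other genes of newly formed fibres. Its level there was higher in the library labelled AHRmKO, with no overlap of the intervals. The embryonic myosin gene Myh3, a marker of the class, was at 1652 and 3720 there, and its part in the Tgfb3 values was not tested. Of the class's 1629 nuclei labelled AHRmKO, 1618 lay in cluster 15. This cluster was at least 2-fold above the median of the other clusters in 8 of 10 adult fibre and 7 of 10 regenerating markers. Its class name rests on pooling these 2 marker lists, a rule set after the clusters were seen. Clusters 5 and 9, with most of the nuclei labelled AHRfl/fl, matched the regenerating list best. Fibroblast-like nuclei came next at 40.5 and 55.0, and myofibre-like and satellite-like nuclei lay between 21.0 and 22.3 in both libraries. Regenerating-like nuclei held 53.7% and 66.9% of Tgfb3 UMIs, beside 28.1% and 23.6% of the UMIs of all genes. The gene overlaps Ttll5, a tubulin-modifying enzyme gene on the opposite strand, over 5149 bases, and whether the counting used strand is not given in the sources used here, so reads of the pair may be mixed. Ttll5 was at 76.4 and 57.7 in regenerating-like nuclei, the opposite order to Tgfb3.

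Mstn (chr1:53061640-53068079, plus strand), which encodes myostatin, was sparse. Myofibre-like nuclei gave 49 and 34 UMIs, or 26.0 (19.2 to 34.4) and 16.8 (11.6 to 23.5) CPM, and these intervals overlapped. Regenerating-like nuclei gave 1.86 and 1.97 CPM, macrophage-like nuclei 0.605 and 0.173 (13 and 2 UMIs), and every other class at most 4 UMIs. Free RNA was estimated at no more than 0.648 CPM, so the myofibre-like level was well above it in both libraries. Regenerating-like nuclei held 34.3% (25.4 to 44.0) and 28.3% (17.5 to 41.4) of Mstn UMIs, intervals that include their 28.1% and 23.6% of the UMIs of all genes. Myofibre-like nuclei held 45.4% and 56.7% of Mstn UMIs from 2.67% and 5.54% of all UMIs. After each nucleus was thinned to 2000 UMIs, a Mstn UMI was found in 6.23% and 3.79% of myofibre-like nuclei (9.09% and 4.82% before thinning), at this depth a share of nuclei with a captured molecule and not of nuclei using the gene.

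Inhba (chr13:16011851-16031621, plus strand), whose product forms activin A, was also sparse and had 45 and 13 UMIs in fibroblast-like nuclei, or 6.55 (4.78 to 8.77) and 4.55 (2.42 to 7.78) CPM. Endothelial-like nuclei of the library labelled AHRfl/fl gave 10.6 CPM, but all 16 UMIs came from 2 of 314 nuclei. None was counted in the 159 endothelial-like nuclei labelled AHRmKO. With a minimum of 1000 UMIs per nucleus the log2 ratio of this class was −0.0029, and with 4000 it was −1.50, neither past the call. No Inhba UMI was counted in myofibre-like or adipocyte-like nuclei of either library, which, at a limit of 3 UMIs, allows up to 1.59 and 1.48 CPM in the former and 3.88 and 7.05 in the latter.

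**Figure D2:**
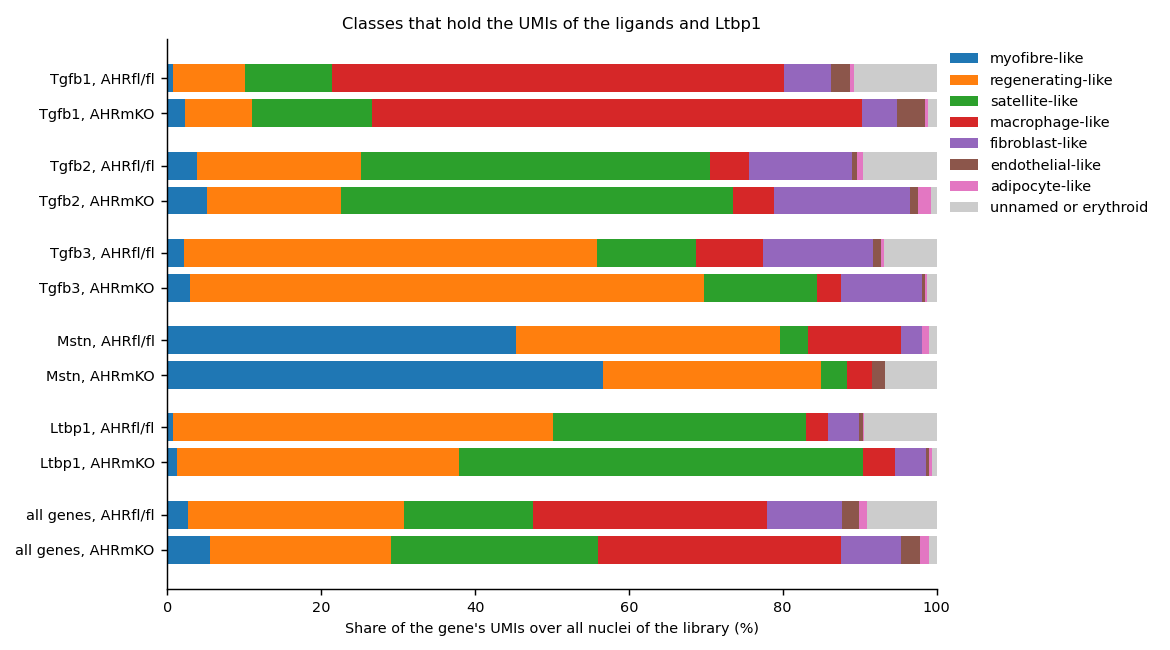
Share of each gene's UMIs (horizontal axis, percent of the UMIs in all nuclei of a library) held by each class (colours), for Tgfb1, Tgfb2, Tgfb3, Mstn and Ltbp1 in both libraries, with all genes as the last pair of bars. Macrophage-like nuclei hold 58.8% and 63.7% of Tgfb1, satellite-like nuclei 45.4% and 51.0% of Tgfb2, and regenerating-like nuclei 53.7% and 66.9% of Tgfb3.

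Ltbp1 (chr17:75005568-75392512, plus strand), which encodes a protein that tethers latent TGF-beta to the matrix, was highest in satellite-like and regenerating-like nuclei. Satellite-like nuclei held 745 (730 to 761) and 639 (623 to 655) CPM and regenerating-like nuclei 671 (660 to 682) and 510 (495 to 525). Fibroblast-like nuclei followed at 157 and 166. Myofibre-like nuclei were at 96.6 and 72.1, beside an estimated free RNA of 36.2 to 89.7 and 42.7 to 75.4, and macrophage-like nuclei were lowest at 37.0 and 43.9. Together the satellite-like and regenerating-like classes accounted for most Ltbp1 UMIs, with 32.8% and 52.4% in the former and 49.5% and 36.8% in the latter. Of the UMIs of all genes, the former held 16.8% and 26.8% and the latter 28.1% and 23.6%. Within the library labelled AHRfl/fl, regenerating-like cluster 5 stood at 797 and cluster 9 at 604. At 2000 UMIs per nucleus, 63.7% and 59.0% of satellite-like nuclei had an Ltbp1 UMI.

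Tgfbr1 (chr4:47353222-47414931, plus strand), the type I receptor of TGF-beta, was at 810 (798 to 822) and 940 (922 to 958) CPM in macrophage-like nuclei. Myofibre-like nuclei were next at 471 and 299, then endothelial-like at 307 and 207 and fibroblast-like at 281 and 194. Endothelial-like and fibroblast-like intervals overlapped in both libraries. Satellite-like nuclei at 143 and 143 and regenerating-like nuclei at 116 and 101 were lowest in both. Free RNA alone would give an estimated 38.0 to 95.2 and 37.5 to 50.7. Macrophage markers summed to 9838 and 6995 CPM in macrophage-like nuclei. Their sums were 4004 and 1183 in endothelial-like, 2284 and 460 in fibroblast-like and 1270 and 782 in myofibre-like nuclei. The part of these markers in the Tgfbr1 values was not tested.

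Tgfbr2 (chr9:116084293-116175360, minus strand), the type II receptor, did not follow that order. Fibroblast-like nuclei held 277 (265 to 290) and 219 (202 to 237) CPM and endothelial-like nuclei 245 (221 to 272) and 287 (254 to 324), so the leading class differed between the libraries. Macrophage-like nuclei were at 198 and 142, and regenerating-like nuclei at 58.2 and 35.6. At 2000 UMIs per nucleus, a UMI of both Tgfbr1 and Tgfbr2 was present in 18.3% and 15.3% of macrophage-like nuclei, in 12.6% and 9.79% of fibroblast-like nuclei and in 2.06% and 1.35% of regenerating-like nuclei.

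Macrophage-like clusters of the library labelled AHRfl/fl differed in both receptor genes. In the F13a1, Mrc1 and Cd163 cluster, Tgfbr1 was lowest at 353 and Tgfbr2 highest at 314. In the Fgr and Ptprc cluster, Tgfbr1 was at 1089 and Tgfbr2 at 180. The cluster led by Rsad2 and Cxcl10, interferon-response genes, had 596 and 176, and the cluster with Gpnmb and Atp6v0d2 had 818 and 160. Cycling cluster 18 had 805 and 133. Cluster 14 of the library labelled AHRmKO had 938 and 152, both within the range of the AHRfl/fl clusters.

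**Figure D3:**
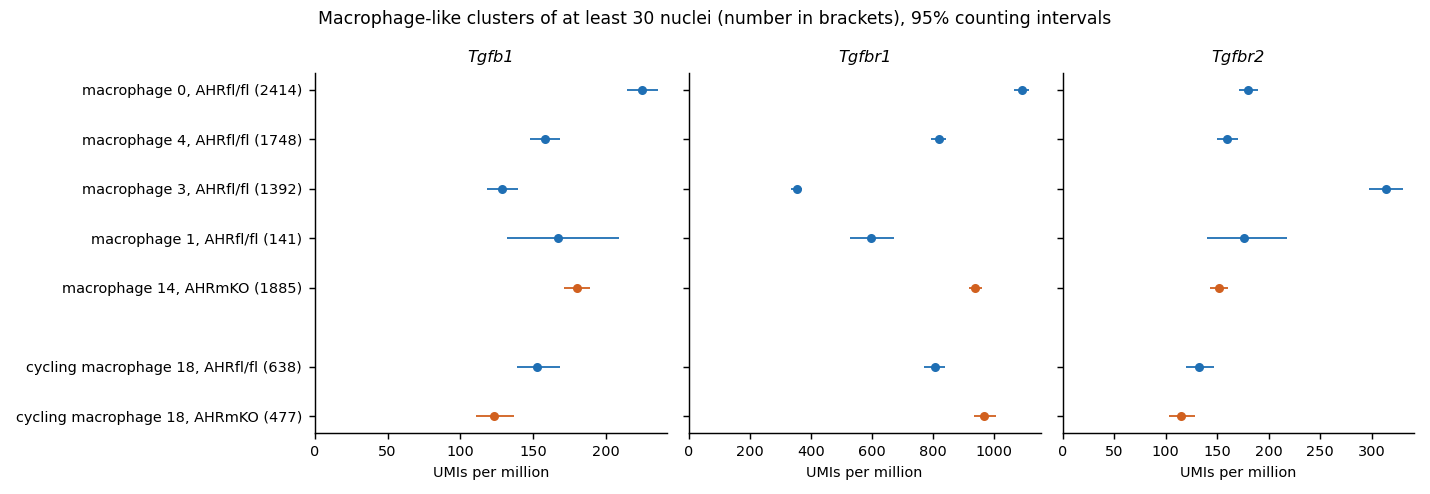
Levels of Tgfb1, Tgfbr1 and Tgfbr2 (horizontal axes, CPM, linear from 0) in macrophage-like clusters by library (rows, nuclei in brackets) with 95% counting intervals; blue is AHRfl/fl and orange AHRmKO. Cluster 3 has the lowest Tgfbr1 (353) and the highest Tgfbr2 (314).

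Tgfbr3 (chr5:107106570-107289629, minus strand), which encodes betaglycan, was highest in adipocyte-like and fibroblast-like nuclei. Adipocyte-like nuclei held 1596 and 1253 CPM and fibroblast-like nuclei 842 (820 to 864) and 759 (728 to 792). Endothelial-like nuclei came next at 323 and 435, while macrophage-like and regenerating-like nuclei stayed between 13.1 and 18.5. At 2000 UMIs per nucleus, 92.2% and 80.5% of adipocyte-like nuclei, 72.8% and 65.7% of fibroblast-like nuclei and 37.9% and 47.2% of endothelial-like nuclei had a Tgfbr3 UMI. Satellite-like nuclei were at 242 (233 to 251) and 105 (98.9 to 112), and myofibre-like nuclei at 243 (221 to 266) and 68.1 (57.2 to 80.5). In both of these classes the library labelled AHRmKO was the lower one, without overlap of the intervals. In satellite-like nuclei all 10 fibroadipogenic markers had UMIs and summed to 1724 and 1042 CPM, and all 11 macrophage markers to 1153 and 375, and their part in the Tgfbr3 values was not tested.

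Acvr2b (chr9:119402118-119434995, plus strand), an activin type II receptor that also binds myostatin, was low in every class, at most 16.1 and 22.7 CPM. In the library labelled AHRfl/fl, satellite-like nuclei at 16.1 (13.9 to 18.5) and endothelial-like nuclei at 14.6 (9.17 to 22.2) had overlapping intervals. Myofibre-like nuclei gave 8 and 46 UMIs, or 4.25 (1.83 to 8.37) and 22.7 (16.6 to 30.3). The library labelled AHRmKO was the higher one there, with no overlap. Acvr2b overlaps the antisense gene Gm47320 over 3909 bases, and without stated strand use reads of the pair may be mixed. In all barcodes of at least 1000 UMIs, Gm47320 was counted at 117 and 8 UMIs and Acvr2b at 1100 and 786.

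A difference between the libraries was called where it passed 2-fold, its counting interval left out equality and the gene had at least 10 UMIs over both libraries. Of 70 pairs of gene and class, 63 had enough UMIs, and 6 were called, 2 higher and 4 lower in the library labelled AHRmKO. By the same rule 23.0% of all gene and class pairs were called, 5.78% higher and 17.2% lower, and the share of these 10 genes lies under that background, a difference that was not tested. The median log2 ratio over the 63 pairs was −0.23, and the median over all genes tested in a class ran from −0.19 to −0.08. Estimates of free RNA moved the count: subtracting it gave 16 calls, 11 higher and 5 lower, with the profile of at most 100 UMIs, where 33.0% of all pairs were called (18.8% higher and 14.2% lower). With the profile of 200 to under 500 UMIs it gave 14, 3 higher and 11 lower, where 30.1% were called (12.6% higher and 17.5% lower). In the barcodes of 200 to under 500 UMIs themselves, Acvr2b was called higher and Inhba lower, where 31.5% of all genes were called (8.92% higher and 22.6% lower).

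The 2 called higher were Tgfb3 in regenerating-like nuclei, with a log2 ratio of 1.13 (1.01 to 1.26), and Acvr2b in myofibre-like nuclei, with 2.29 (1.32 to 3.71). The 4 called lower were Tgfb2 in myofibre-like nuclei at −1.05 (−1.44 to −0.67), Tgfbr3 in myofibre-like nuclei at −1.82 (−2.12 to −1.55) and in satellite-like nuclei at −1.20 (−1.30 to −1.10), and Inhba in endothelial-like nuclei. The last was at least 3.32-fold lower against a floor of 3 UMIs in the library with none, but its counting interval reached up to a log2 ratio of −1.27, and its UMIs came from 2 nuclei. Tgfb2 in satellite-like nuclei missed the 2-fold line at −0.95. In either direction, 3 of 9 genes with enough UMIs were called in myofibre-like nuclei, where 27.6% of all genes were. In regenerating-like nuclei 1 of 9 was called (22.8% of all genes), in satellite-like nuclei 1 of 9 (23.3%) and in endothelial-like nuclei 1 of 9 (23.4%). Macrophage-like, fibroblast-like and adipocyte-like nuclei had none of these genes called, where 20.4%, 23.6% and 20.5% of all genes were.

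**Figure D4:**
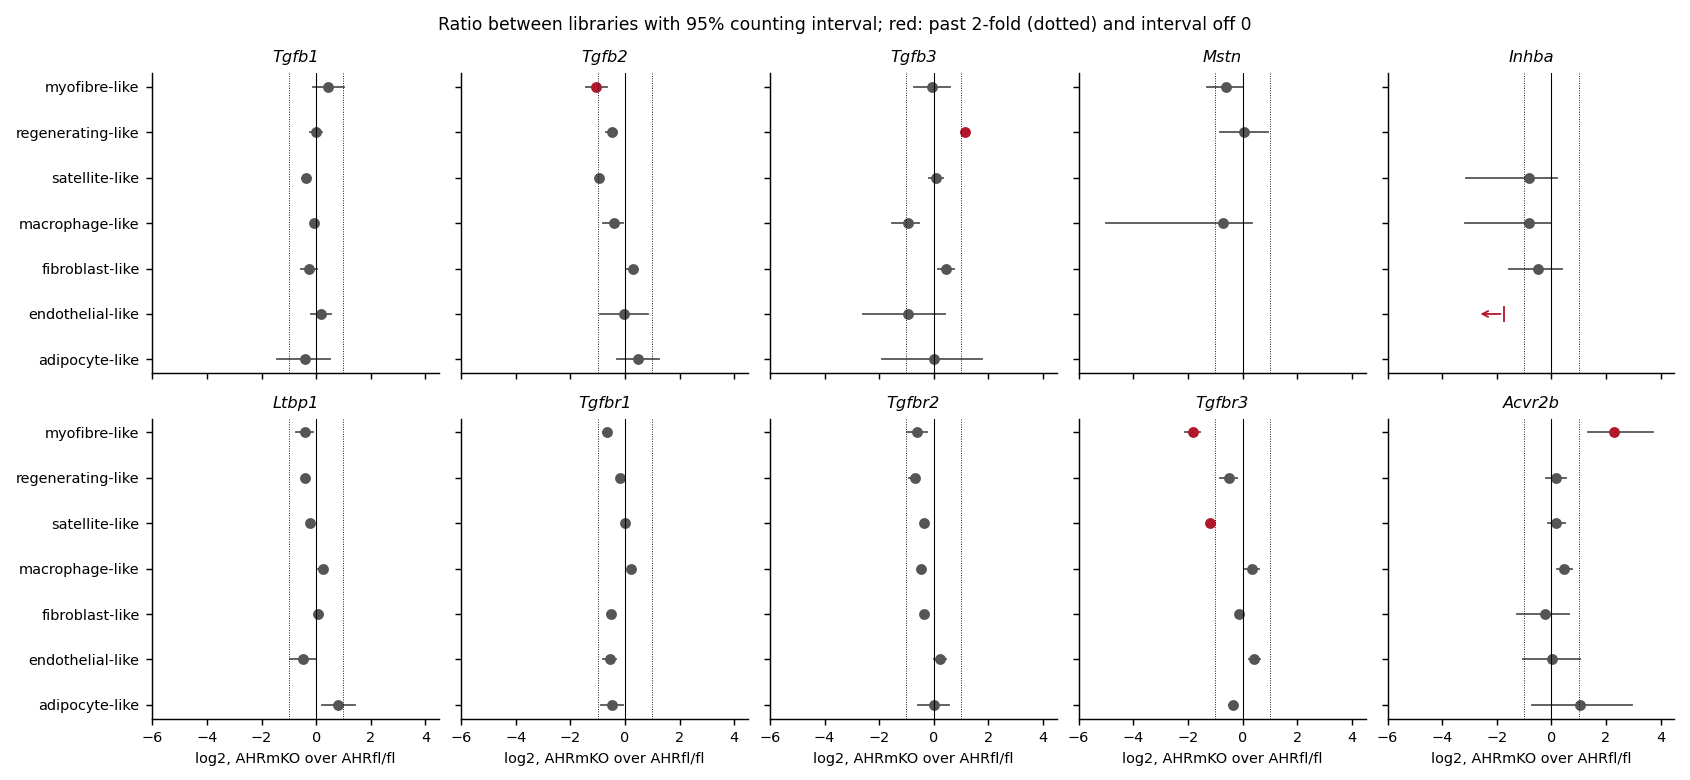
Log2 ratio of CPM, AHRmKO over AHRfl/fl (horizontal axes), with 95% counting intervals for each gene and class of at least 10 UMIs (rows); red marks the 6 called pairs, dotted lines are 2-fold and the arrow starts at the bound for Inhba, which had no UMI in endothelial-like nuclei labelled AHRmKO. Acvr2b in myofibre-like nuclei has the highest ratio at 2.29, and Tgfbr3 in myofibre-like nuclei lies at −1.82.

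The libraries filled different clusters of the muscle classes, so the called genes were also read cluster by cluster. All 10 myofibre markers had UMIs in myofibre-like nuclei of both libraries, with a summed level of 7508 and 18726 CPM. All 11 macrophage markers had UMIs there too, at 1270 and 782 against 9838 and 6995 in macrophage-like nuclei. Markers of some other classes also differed in level there. All 10 fibroadipogenic markers had UMIs in both libraries, with summed levels of 681 and 236, as did all 10 regenerating markers, with 2056 and 458. Satellite markers summed to 441 and 188, with Calcr at 0 in the library labelled AHRmKO. Erythroid markers summed to 201 and 1253 and adipocyte markers to 385 and 534, with Adipoq and Lep at 0 in both libraries. The part of these markers in the Tgfbr3, Tgfb2 and Acvr2b calls was not tested. Myofibre-like cluster 10, led by Trp63, Trim63 and Mlip, held 384 and 64 nuclei, while cluster 21 held 1 and 517 nuclei and was rich in the fast myosins Myh1 and Myh4. Inside cluster 10, Tgfbr3 was at 242 and 195 CPM and Tgfb2 at 90.7 and 104, with overlapping intervals for both. In cluster 21 of the library labelled AHRmKO, Tgfbr3 was at 51.0 and Tgfb2 at 35.3. Acvr2b was at 4.27 (8 UMIs) and 8.31 (2 UMIs) in cluster 10 and at 24.7 in cluster 21.

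Clustering each library alone split the myofibre-like nuclei labelled AHRmKO into 372 nuclei high in Myh4 and 206 high in Myh1. Mstn was at 25.7 (17.5 to 36.5) in the Myh4 cluster and 5.22 (1.42 to 13.4) in the Myh1 cluster. The 1 myofibre-like cluster of the library labelled AHRfl/fl, higher in Myh4 than in Myh1, stood at 26.1 (19.3 to 34.5), close to the former. Tgfbr3 was at 96.9 and 19.6 in the Myh4 and Myh1 clusters, both below the 243 of the library labelled AHRfl/fl. Acvr2b was at 19.9 and 28.7, both above its 4.26.

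Regenerating-like nuclei labelled AHRmKO lay almost all in cluster 15 (42 and 1618 nuclei). Tgfb3 there was at 120 (72.0 to 187) and 117 (110 to 125), with overlapping intervals, the first resting on 19 UMIs. The clusters that held the other AHRfl/fl nuclei had 31.2 (cluster 5) and 63.0 (cluster 9). In satellite-like cluster 16 (1640 and 48 nuclei) Tgfbr3 was at 357 (342 to 372) and 437 (371 to 513) and Tgfb2 at 194 and 199. In cluster 6 (34 and 1216 nuclei) Tgfbr3 was at 100 and 113.

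Over the 8 clusters with at least 30 nuclei of each library, 5 of 68 pairs were called, 1 higher and 4 lower, where 16.3% of all gene and cluster pairs were called (4.04% higher and 12.2% lower). They were Tgfb3 higher in satellite-like cluster 16 (23.3 and 51.8), Tgfbr3 lower in regenerating-like cluster 15 (44.1 and 13.2, from 7 and 112 UMIs), Tgfb2 (7.93 and 3.49) and Tgfb3 (9.37 and 2.44) lower in cycling macrophage-like cluster 18, and Inhba in the endothelial-like cluster. Free RNA was estimated at 10.4 to 18.0 and 6.69 to 8.62 for Tgfb2 and at 7.30 to 10.5 and 4.36 to 5.23 for Tgfb3, so both genes in cluster 18 lay within or below it. Tgfbr3 in cluster 15 of the library labelled AHRmKO was also below its estimate of 17.5 to 24.9. None of the called differences in myofibre-like, regenerating-like or satellite-like nuclei as whole classes was called inside a cluster of that class. The clusters were made without batch correction, so nuclei of both libraries that share 1 were grouped for being alike. Few came from 1 library (64 in cluster 10, 42 in cluster 15, 48 in cluster 16 and 34 in cluster 6), so a missing call does not show equality. In cluster 10 the Acvr2b interval, −2.31 to 3.29, held the class ratio of 2.29. Intervals of the other genes called in these classes did not hold theirs. In cluster 10, Tgfbr3 had −0.78 to 0.13 (class ratio −1.82) and Tgfb2 −0.47 to 0.81 (−1.05). In cluster 15, Tgfb3 had −0.68 to 0.71 (1.13). Tgfbr3 had 0.05 to 0.53 in cluster 16 and −0.65 to 1.13 in cluster 6 (−1.20). Clusters 5, 8, 9, 20 and 21 had fewer than 30 nuclei of 1 library and were not compared. The part that cluster make-up, free RNA or the preparation of a library had in the class-level ratios was not tested, and with 1 library per group these cannot be told apart from genotype.

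**Figure D5:**
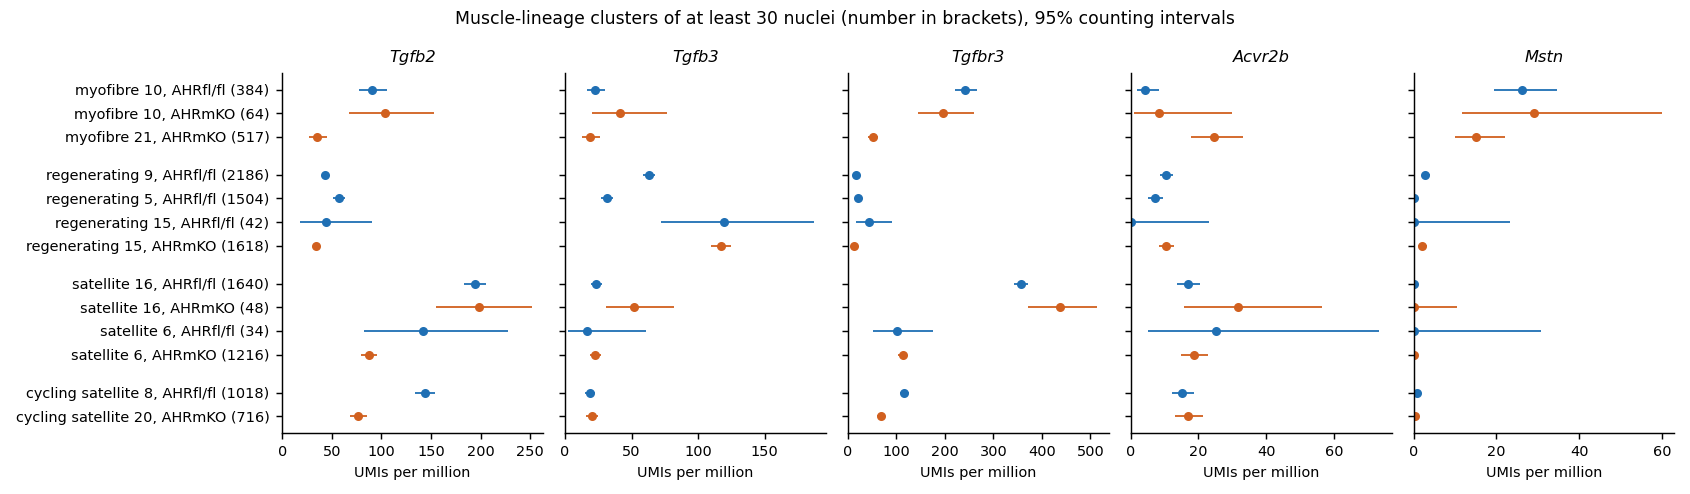
Levels of Tgfb2, Tgfb3, Tgfbr3, Acvr2b and Mstn (horizontal axes, CPM, linear from 0) in muscle-lineage clusters by library (rows, nuclei in brackets) with 95% counting intervals; blue is AHRfl/fl and orange AHRmKO. In regenerating-like cluster 15 Tgfb3 is 120 and 117, and in satellite-like cluster 16 Tgfbr3 is 357 and 437.

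For Tgfbr3 and Tgfb2, dividing satellite-like nuclei by cycling state gave ratios of the same sign. Tgfbr3 was at 352 and 134 in clusters outside the cycle (log2 ratio −1.39) and at 116 and 70.8 in cycling ones (−0.71, short of 2-fold). Tgfb2 was at 193 and 94.5 in the former (−1.03, past 2-fold) and 145 and 79.7 in the latter (−0.86). Both genes were thus lower in cycling than in other satellite-like nuclei in each library. The ratio intervals of the 2 states overlapped for Tgfb2 (−1.19 to −0.88 and −1.04 to −0.68). Outside the cycle the ratios set mainly cluster 16 (1640 of 1674 nuclei labelled AHRfl/fl) against cluster 6 (1216 of 1264 labelled AHRmKO). Inside cluster 16 the log2 ratio was 0.29 for Tgfbr3 and 0.03 for Tgfb2, and inside cluster 6 it was 0.17 and −0.70.

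The other 45 genes of the pathway list gave 279 of 315 pairs with enough UMIs, of which 20 were called higher and 46 lower in the library labelled AHRmKO. These 23.7% lay near the 23.0% of all gene and class pairs. Subtracting free RNA gave 52 higher and 22 lower of 216 with the profile of at most 100 UMIs (34.3%, against 33.0% of all pairs), and 38 and 38 of 240 with the other (31.7%, against 30.1%). Genes commonly induced by TGF-beta contributed 1 higher and 23 lower of 46 pairs, with a median log2 ratio of −1.02, where 5.78% of all pairs were called higher and 17.2% lower. With free RNA subtracted they gave 4 higher and 9 lower of 31 pairs, with a median of −0.22, or 4 and 11 of 35, with −0.21, where 14.2% and 17.5% of all pairs were called lower. Postn, which encodes the matrix protein periostin, was called lower in 7 of 7 classes, and Ccn2, a matricellular growth factor gene, in 6 of 7. In fibroblast-like nuclei, where all 3 of these genes were highest, Postn was at 940 and 384 CPM, Ccn2 at 304 and 144 and Fn1, fibronectin, at 918 and 606. The class's own markers summed to 9971 and 7277 there and macrophage markers to 2284 and 460, while pericyte or smooth muscle markers, at 472 and 779, went the other way. Fibroadipogenic markers summed to 962 and 251 in macrophage-like and 1198 and 267 in endothelial-like nuclei, but to 2026 and 2733 in adipocyte-like nuclei. The part of these markers in the calls was not tested.

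Postn lay within or below free RNA, estimated at 38.5 to 53.7 and 8.50 to 9.30, in 3 of its 7 classes in both libraries. It was at 39.3 and 4.42 in macrophage-like, 24.7 and 3.71 in regenerating-like and 31.9 and 6.42 in myofibre-like nuclei. Endothelial-like nuclei, at 61.2 and 7.47, were below the estimate in the library labelled AHRmKO, and the part of free RNA in the calls of these genes was not tested further.

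Among SMADs and their regulators, 4 of 77 pairs were called higher and 2 lower, or 7.79% against the 23.0% of all pairs, a difference that was not tested. With free RNA subtracted they gave 14 higher and 3 lower of 75 (22.7%, against 33.0% of all pairs) or 6 and 5 of 77 (14.3%, against 30.1%). Of the 6 pairs called without subtraction, 4 were in myofibre-like nuclei, where 27.6% of all genes were called. Smad3, a receptor-activated SMAD, was there at 474 and 176, and the inhibitory Smad7 at 15.9 and 45.4. The other receptors and co-receptors had 2 of 40 pairs called higher and 1 lower (7.5%, against 23.0% of all pairs). Genes of latency, storage and activation had 8 and 9 of 76 (22.4%). With free RNA subtracted, 22.6% or 15.2% of the former and 45.5% or 47.1% of the latter were called, against 33.0% or 30.1%. Acvr1b, a type I receptor for activin and myostatin, was called higher in myofibre-like nuclei at 53.1 and 118, and Acvr2a was highest in fibroblast-like nuclei at 365 and 443. Acvr1c was highest in adipocyte-like nuclei at 460 and 573. Of the endothelial receptors, Eng was at 237 and 464 and Acvrl1 at 28.6 and 74.7 in endothelial-like nuclei. In that class all 9 endothelial markers had UMIs and summed to 5012 and 7559, and all 11 macrophage markers to 4004 and 1183, and their part in these values was not tested. Acvrl1 was called lower in regenerating-like nuclei, at 6.85 and 0.93.

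Antagonists of activin and myostatin stood at 48.4 CPM or less in every class, and 4 of 20 pairs were called higher and 4 lower, where 5.78% and 17.2% of all pairs were. With free RNA subtracted they gave 5 higher and 1 lower of 13, or 4 and 2 of 15. Of all pairs, 18.8% were called higher and 14.2% lower in the first setting, and 12.6% and 17.5% in the second. Fst, which encodes follistatin, was highest in fibroblast-like nuclei at 48.4 and 38.2 and was called lower in myofibre-like nuclei at 7.96 and 1.48. Fstl3 was highest in satellite-like nuclei and called lower there at 11.1 and 2.55. Wfikkn1, which encodes a binding protein of myostatin, was called higher in 4 classes, with 1.11 and 7.53 in regenerating-like nuclei. The other ligand genes of the family had 1 of 20 pairs called higher and 7 lower, beside 5.78% and 17.2% of all pairs. With free RNA subtracted they gave 3 and 3 of 11, beside 18.8% and 14.2%, or 4 and 3 of 12, beside 12.6% and 17.5%. These differences were not tested. Among these ligand genes Gdf15, which is stress-induced, was called lower in 5 classes, macrophage-like nuclei being highest at 17.3 and 7.10.

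Across the 14 class sums, the genes most like Tgfb1 were Mfsd6 and Arhgap17, with Pearson r of 0.962 and 0.961 of log2(CPM + 1). Those most like Tgfb2 were Zfhx4 and Mir100hg at 0.924 each, and those most like Tgfb3 were Klhl29 (0.881) and Lrrn2 (0.880). Ltbp1 was nearest to Dnal1 (0.981) and Cdh2 (0.974), and Tgfbr1 to Nfe2l2 (0.954) and Diaph1 (0.951). Tgfbr2 was nearest to Oasl2 (0.959) and Rnf213 (0.949), and Tgfbr3 to Zfp423 (0.950) and Il1r1 (0.945). Mstn was nearest to 4930402D18Rik (0.974) and Tekt1 (0.950), Inhba to Camk4 (0.948) and Gm11342 (0.920), and Acvr2b to Xpc (0.897) and Wipf2 (0.859). Genes needed at least 10 CPM in 1 class sum to enter. Inhba reached this only in endothelial-like nuclei labelled AHRfl/fl (10.6), where its 16 UMIs came from 2 nuclei. The points come from 7 classes in each of 2 libraries, so they share library and depth, and r is a description only.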

How the data were processed

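Single nuclei of 2 tibialis anterior samples, 1 library per group, were profiled with the Chromium 3′ HT chemistry. The files the authors deposited hold whole-number UMI counts, with no normalization, for each gene in each barcode. The submitters' processing notes name Cell Ranger 7.0.1 and mm10, whereas the matrix header names version 4 of the same software, and the annotation, the counting of introns and the use of strand are not given in the sources used here. The members and all gene lists were chosen with earlier results of these data known.

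From the deposited counts, barcodes with at least 2000 UMIs and 200 genes were kept below a mitochondrial limit of 5% (AHRfl/fl) or 8.97% (AHRmKO), the larger of 5% and the median plus 3 scaled median absolute deviations. Likely doublets, ranked by Scrublet at 0.4% per 1000 nuclei, were left out (1154 and 241). The nuclei were clustered together (scanpy 1.11.5, Leiden resolution 0.8, 2000 variable genes, 30 components) without the members and pathway genes and without batch correction. A cluster was named where at least 3 markers of a class exceeded the other clusters 2-fold. The pooling of adult and regenerating fibre markers and the rule that left mixed clusters unnamed were set after the clusters were seen, and 3 clusters (5.15% and 0.518% of nuclei) stayed unnamed. Counts were summed per class, and ratios of counts per class total (CPM) carry 0.5 CPM added to each side. Free RNA was scaled on 15 fibre genes in macrophage-like and endothelial-like nuclei. No p-value is given, because nuclei are not replicates. The ratio and call steps were tested on simulated data. All 10 members are named, with up to 3 called pathway genes per class, the antagonist, receptor and SMAD genes at their highest class, and the 2 genes most like each member. One pathway gene that the rule would name is counted in the totals and is not reported here. Alternatives covered filters, clustering, depth, denominator, added constant and free RNA.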

Additional observations from a re-analysis of the deposited data

Results flagged for a closer look

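Acvr2b differed between the libraries in barcodes of 200 to under 500 UMIs, which hold 21.9% and 42.0% of all UMIs, belong to no class and serve above as a profile of free RNA. There it was at 3.83 CPM in the library labelled AHRfl/fl (127 UMIs) and at 9.09 in the one labelled AHRmKO (434 UMIs), the same direction as in myofibre-like nuclei. Inhba, at 2.80 (93 UMIs) and 0.73 (35 UMIs), was lower in the library labelled AHRmKO, with a log2 ratio of −1.42. No other of the 10 genes was called in these barcodes. In barcodes of at most 100 UMIs Acvr2b was at 8.19 and 7.94, from 18 UMIs in each library. What these barcodes hold and their part in the myofibre-like values were not tested.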

How the results depend on the processing

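No paired analysis was possible because each group is 1 library. Of the 10 members, 6 pairs of gene and class were called, and this count stayed within 1.5 times under every alternative run except the subtraction of free RNA, which gave 16 with the profile of at most 100 UMIs and 14 with that of 200 to under 500 UMIs. The number of members with the same highest class in both libraries, 6, stayed within 1.5 times throughout. The pathway count of 66 was 41 with 5 CPM added to each side. Of the values past their counting interval, Tgfb2 turned direction in 2 cases: its log2 ratio in myofibre-like nuclei was 0.20 in clusters with at least 30 nuclei of each library, and fibroblast-like nuclei of the library labelled AHRmKO stood at −0.13 relative to the next class once nuclei were thinned to 2000 UMIs. The former rests on fewer nuclei by construction, and the cause of the latter was not tested. Leads whose interval held equality in the first place also changed sign, that of endothelial-like nuclei for Inhba in the library labelled AHRfl/fl (down to −2.50) and those for Acvr2b of satellite-like nuclei there (−0.23) and of myofibre-like nuclei in the one labelled AHRmKO (−1.18).

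Over the alternatives, the log2 ratio of Tgfb3 in regenerating-like nuclei ran from 0.67 to 1.33 and missed the call in 6 of 14, and that of Tgfb2 in myofibre-like nuclei ran from −1.27 to 0.20 and missed it in 6 of 16 (1 of them the turn above). Tgfbr3 ran from −3.23 to −0.31 in myofibre-like (call missed in 1 of 16) and from −1.53 to −0.72 in satellite-like nuclei (4 of 16), and Acvr2b in myofibre-like nuclei from 0.89 to 3.41 (1 of 16). Inhba in endothelial-like nuclei ran from −4.94 to −0.0029 and missed the call in 4 of 16. The adipocyte-like class fell under 50 nuclei with a minimum of 4000 UMIs. The regenerating-like class did so with the 2 fibre marker lists kept apart and in clusters filled by both libraries, alternatives chosen after seeing the data. Mstn and Inhba rest on at most 49 UMIs per class and library, and Acvr2b on 8 and 46 in myofibre-like nuclei, so small differences were not detectable there.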

Other observations

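Nuclei of the 3 unnamed clusters, 815 of the AHRfl/fl library and 39 of the AHRmKO library, entered no class. The largest, cluster 17, had 527 and 2 nuclei, a median of 7264 UMIs, and leading genes of a regenerating-like cluster beside macrophage markers.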
